A study of Rattus norvegicus with 8 samples.

Results

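The genes described here build the contacts between hepatocytes. They are the gap junction connexins Gjb1, Gjb2 and Gja1, the claudins Cldn1, Cldn2, Cldn3 and Cldn14, the other tight junction genes Ocln and Tjp1, and the adherens junction gene Cdh1. They were chosen by name, with earlier results of these data known, and the array carried all 10 of them among 27110 gene names, on 12 of 45598 probes. Ocln had 3 probes, the Gjb2 probe was spotted 2 times, and the other genes had 1 probe in 1 spot.

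Hepatocytes are coupled through gap junctions, channels made of connexins that let ions and small metabolites pass from cell to cell along the liver plate. Tight junctions seal the bile canaliculus from the blood side: claudins and occludin form the strands, and scaffold proteins such as ZO-1 tie them to actin. E-cadherin in the adherens junction holds the neighbouring membranes together and lies next to these strands.

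The study asked how small hepatocyte-like progenitor cells (SHPCs), which form clusters in rat livers whose mature hepatocytes cannot divide, respond to transplanted bone marrow-derived mesenchymal cells (BM-MCs). Every sample came from a female F344 rat given retrorsine, which blocks hepatocyte division, followed by partial hepatectomy. Control SHPCs (3 samples) and mature hepatocytes (MHs, 2 samples) were captured by laser microdissection from livers without transplanted cells, and SHPCs with BM-MCs (3 samples) from livers that had received BM-MCs of male F344 donors through the spleen. That origin of the MHs is the one the labels give, while the text of the study also describes MHs captured in livers that had received BM-MCs. RNA of each sample was hybridised to a 1-colour array. The labels call the strain DPPIV+, whereas the methods call the recipients DPPIV-, and neither gives the age of the recipients. Which animal a sample came from is not stated either. The p-values therefore measure how far these samples spread, and that spread may be technical.

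Levels are given as log2 signal relative to the 75th percentile of the array, with 0 as the percentile itself. A level compares samples for 1 probe and does not rank genes, because probes differ in brightness. All 12 probes were well above background on each of the 7 arrays with complete marks, and none of their 13 spots was marked as an outlier. All 10 hepatocyte markers, among them Alb, Ttr and Hnf4a, were above background on the same arrays. MHs 1 and 2 and control SHPCs 1 and 2 lay in the first set of 4 arrays on the slide, and control SHPC 3 and the 3 SHPC samples with BM-MCs in the second, so that position and transplantation largely coincide.

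The probe sequences below show what the array measured for Gjb1, the main hepatocyte connexin, for Cldn3, which had the lowest p with BM-MCs, and for Ocln, whose probes differed in 1 comparison. Positions are those of the array annotation on the rat build rn4, and all bases are in lower case because no part is singled out. The Gjb1 probe lies at chrX:89455686-89455745 on the plus strand and the Cldn3 probe at chr12_random:771373-771432 on the minus strand. The Ocln probes lie on the minus strand of chromosome 2, the brightest (probe 1) at chr2:31318489-31318548, probe 2 at chr2:31317108-31317167 and probe 3 at chr2:31319306-31319365, and the first 30 bases of each are shown.
Gjb1: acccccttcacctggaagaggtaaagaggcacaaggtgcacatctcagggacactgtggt
Cldn3: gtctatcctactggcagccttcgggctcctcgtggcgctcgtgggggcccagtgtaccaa
Ocln probe 1: ccattgtatcagaggatccaattacattta
Ocln probe 2: ccctcccccaagaaagacaatgacgttttg
Ocln probe 3: ttcctgtctccagtattgaagcattttata

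No junction gene passed an adjusted p of 0.05 in limma in any of the 3 comparisons. With BM-MCs against control SHPCs, 0 of 10 were called, against 0.0216% of the 23111 tested probes, and 3 had an unadjusted p under 0.05 (Cldn1, Cldn2 and Cldn3), against 16.6% of probes. For MHs against control SHPCs, 0 of 10 were called, against 1.13% of probes, and 2 had an unadjusted p under 0.05 (Cldn2 and Ocln), against 19.2%. For SHPCs with BM-MCs against MHs, 0 of 10 were called, against 0.338% of probes, and 0 had an unadjusted p under 0.05, against 13.3%. The methods' t-test at its unadjusted threshold called 2 of the 10 with BM-MCs (Cldn2 higher and Cldn3 lower), against 14.9% of all probes, and 3 of the 10 in MHs (Cldn2 higher, Ocln and Cdh1 lower), against 17.5%, both relative to control SHPCs. Between SHPCs with BM-MCs and MHs it called 0 of the 10, against 9.26%. After Benjamini-Hochberg adjustment it called 0 of the 10 in each comparison. The differences of these 10 genes given below are therefore measured values that did not pass the test across all probes.

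**Figure D1:**
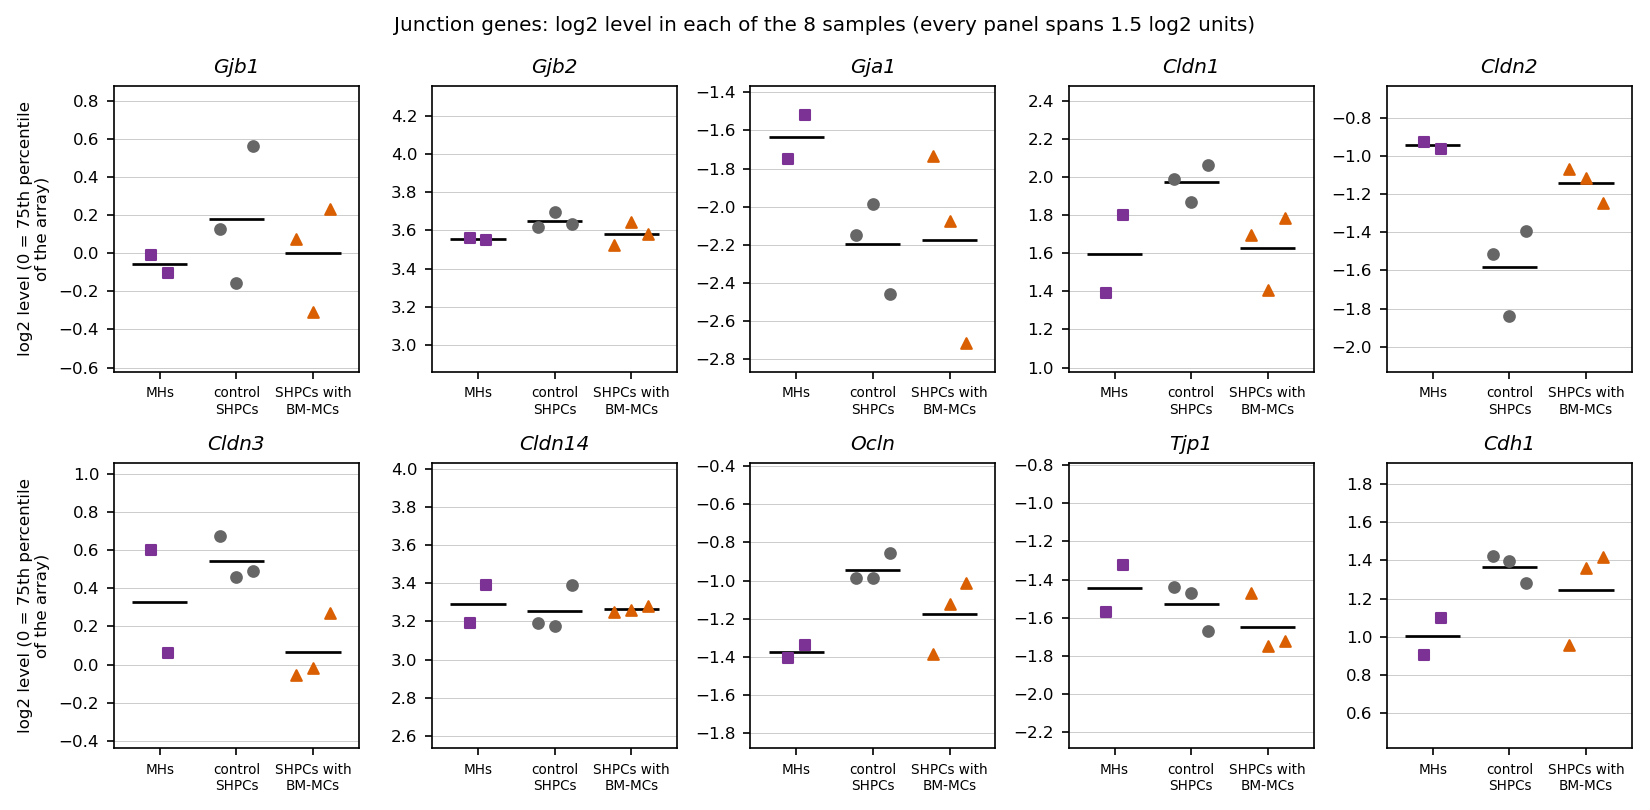
Log2 level of the 10 junction genes in each sample, with 0 at the 75th percentile of the array. Squares are MHs, circles control SHPCs and triangles SHPCs with BM-MCs, in order of replicate from left to right, and lines are group means. Every panel spans 1.5 log2 units, and the 8 samples lie within 0.17 for Gjb2 and within 1.20 for Gja1.

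The 2 connexins that hepatocytes use most did not differ past the test in any comparison. Gjb1 encodes Cx32, the main gap junction protein of hepatocytes. It was at -0.0098 and -0.10 in MHs, at 0.13, -0.16 and 0.56 in control SHPCs, and at 0.073, -0.31 and 0.23 in SHPCs with BM-MCs. The groups overlapped, and control SHPC 3 stood 0.58 above the mean of the other 2 controls. With BM-MCs the log2 difference from controls was -0.18 (95% confidence interval -0.73 to 0.38, adjusted p = 0.71 from limma). It was 0.014 without control SHPC 3 and -0.56 within the second set of arrays, where that sample is the only control.

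Gjb2 encodes Cx26, a connexin which in rat liver is most abundant near the portal tract. Its level was 3.56 and 3.55 in MHs, 3.62, 3.69 and 3.63 in control SHPCs, and 3.52, 3.65 and 3.58 in SHPCs with BM-MCs. The MHs lay just below every control, and the SHPCs with BM-MCs overlapped both groups. The log2 difference with BM-MCs was -0.066 (95% confidence interval -0.31 to 0.18, adjusted p = 0.76 from limma), or 0.056 with quantile normalization. The interval spans 0.81 to 1.13 of the control level. With each array scaled to its median, which moved the median of all probes to -0.17, the difference was -0.26. The 2 spots of the probe differed by a median of 0.023 within an array.

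Gja1 encodes the connexin Cx43, which in liver is known mainly from stellate, endothelial and Kupffer cells rather than from hepatocytes. It was at -1.75 and -1.52 in MHs, at -2.15, -1.99 and -2.46 in control SHPCs, and at -1.73, -2.08 and -2.72 in SHPCs with BM-MCs. Both MHs were above every control, whereas the SHPCs with BM-MCs ran from the level of the MHs to below every control. The MHs differed from control SHPCs by 0.56 on the log2 scale (95% confidence interval -0.11 to 1.23, adjusted p = 0.33 from limma). Gja1 had the widest range of the 10 genes over the 8 samples, 1.20, and both its lowest and its second highest sample were SHPCs with BM-MCs.

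Of the 4 claudins, Cldn1 and Cldn3 lay lower in every sample with BM-MCs than in any control, Cldn2 lay higher and Cldn14 overlapped, and none passed the test, while 24.7% of all probes did not overlap between these groups. Cldn3, a barrier claudin of hepatocytes and bile duct cells, was at 0.68, 0.46 and 0.49 in control SHPCs and at -0.056, -0.015 and 0.27 with BM-MCs. The 2 MHs lay apart from each other, at 0.60 among the controls and at 0.063 among the SHPCs with BM-MCs. The log2 difference with BM-MCs was -0.48 (95% confidence interval -0.81 to -0.15, adjusted p = 0.20 from limma), which is 0.72 of the control level. Within the second set of arrays it was -0.43, with 1 control.

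Cldn1, needed for a tight canalicular seal, was at 1.99, 1.87 and 2.06 in control SHPCs, at 1.70, 1.41 and 1.78 with BM-MCs, and at 1.39 and 1.80 in MHs. The 3 controls were the highest of the 8 samples. The log2 difference from controls was -0.34 with BM-MCs (95% confidence interval -0.68 to -0.010, adjusted p = 0.29 from limma) and -0.38 in MHs (95% confidence interval -0.79 to 0.033, adjusted p = 0.29 from limma). The value for MHs was -0.17 without MH 1 and -0.58 without MH 2.

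Cldn2 was the only claudin of the 4 for which every MH sample and every SHPC sample with BM-MCs lay above every control SHPC sample. It forms a channel for cations and water between cells, and in rat liver it rises toward the central vein. It was at -1.51, -1.84 and -1.39 in control SHPCs, at -1.07, -1.11 and -1.24 with BM-MCs, and at -0.92 and -0.96 in MHs. The 3 groups did not overlap, with the MHs highest and the controls lowest. The log2 difference from controls was 0.64 in MHs (95% confidence interval 0.28 to 1.003, adjusted p = 0.12 from limma), or 1.56-fold, and 0.44 with BM-MCs (95% confidence interval 0.082 to 0.80, adjusted p = 0.25 from limma), or 1.36-fold. Between SHPCs with BM-MCs and MHs it was -0.20 (95% confidence interval -0.56 to 0.16, adjusted p = 0.59 from limma), an interval that includes 0. That difference was -0.40 with each array scaled to its median, which moved the median of all probes to -0.19. Its lowest value over the alternatives was -0.48. Within the first set of arrays the MHs differed from 2 controls by 0.73, and within the second the SHPCs with BM-MCs differed from 1 control by 0.25.

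Cldn14, known as a cation barrier in the inner ear and kidney and also present in liver, lay between 3.18 and 3.39 in all 8 samples. The 3 SHPC samples with BM-MCs were at 3.25, 3.26 and 3.28, inside the range of the controls. Their log2 difference from controls was 0.011 (95% confidence interval -0.25 to 0.28, adjusted p = 0.97 from limma), and -0.18 with each array scaled to its median.

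Ocln encodes occludin, a membrane protein of the tight junction strand, and its 3 probes gave the same order for BM-MCs but not for MHs. On probe 1 the control SHPCs were at -0.99, -0.99 and -0.85, the SHPCs with BM-MCs at -1.39, -1.12 and -1.02, and the MHs at -1.41 and -1.34. Every control was above every other sample on this probe. With BM-MCs the log2 difference from controls was -0.23 on probe 1, -0.28 on probe 2 and -0.37 on probe 3 (adjusted p = 0.42, 0.33 and 0.33 from limma), and the groups did not overlap on any of them. On probe 1 it was -0.13 without the first SHPC sample with BM-MCs. The MHs differed from controls by -0.43 on probe 1 (95% confidence interval -0.76 to -0.10, adjusted p = 0.18 from limma) but by -0.071 on probe 2 and -0.088 on probe 3, where the groups overlapped. The probes start 2694, 4053 and 1877 bases into the same transcript, and whether they differ in what they detect was not tested.

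**Figure D2:**
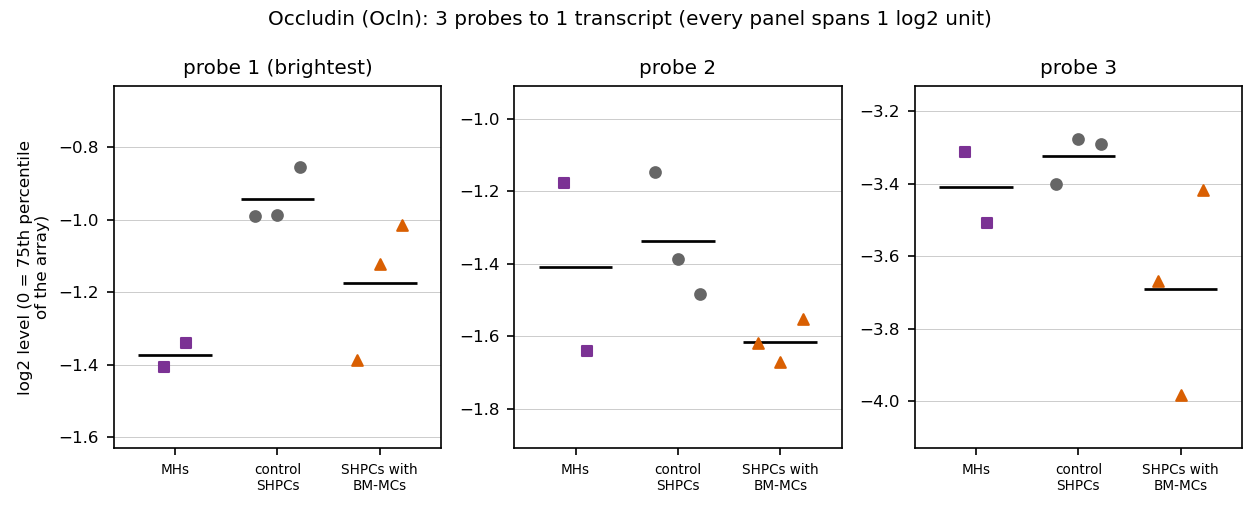
Log2 level of the 3 Ocln probes in each sample, with 0 at the 75th percentile of the array. Squares are MHs, circles control SHPCs and triangles SHPCs with BM-MCs, and lines are group means. The SHPCs with BM-MCs lie below the controls on all 3 probes, and the MHs do so on probe 1.

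Tjp1 encodes ZO-1, the scaffold that links claudins and occludin to actin. It was at -1.57 and -1.32 in MHs, at -1.44, -1.47 and -1.67 in control SHPCs, and at -1.47, -1.75 and -1.72 with BM-MCs, and all groups overlapped. The log2 difference with BM-MCs was -0.12 (95% confidence interval -0.44 to 0.20, adjusted p = 0.66 from limma), and 0.025 within the second set of arrays. The MHs differed from controls by 0.081 (adjusted p = 0.80 from limma).

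Cdh1 encodes E-cadherin, which among hepatocytes is strongest around the portal tract and is also made by bile duct cells. It was at 1.42, 1.40 and 1.28 in control SHPCs, at 0.96, 1.36 and 1.42 with BM-MCs, and at 0.91 and 1.10 in MHs. The MHs were below every control, and the SHPCs with BM-MCs overlapped both groups. The log2 difference in MHs was -0.36 (95% confidence interval -0.76 to 0.026, adjusted p = 0.29 from limma), and that with BM-MCs was -0.12 (95% confidence interval -0.49 to 0.25, adjusted p = 0.71 from limma).

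Counted over the 10 genes, 4 had no overlap between control SHPCs and those with BM-MCs (Cldn1, Cldn3 and Ocln below, Cldn2 above), against 24.7% of all probes. Between MHs and control SHPCs 6 did not overlap (Gjb2, Cldn1, Ocln and Cdh1 below, Gja1 and Cldn2 above), against 41.4%. Between SHPCs with BM-MCs and MHs 1 did not overlap (Cldn2 below), against 32.3%. The 2 comparisons with control SHPCs share those samples. The median log2 difference of the 10 genes was -0.12 with BM-MCs and -0.15 in MHs, against 0.018 and 0.032 over all tested probes. The 10 hepatocyte markers had medians of -0.13 with BM-MCs, with 10 of 10 lower in sign, and -0.13 in MHs, with 9 of 10 lower, and 0 of them were called in either comparison. The median size of the difference, whatever its sign, was 0.15 with BM-MCs and 0.30 in MHs, against 0.20 and 0.24 over all tested probes.

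**Figure D3:**
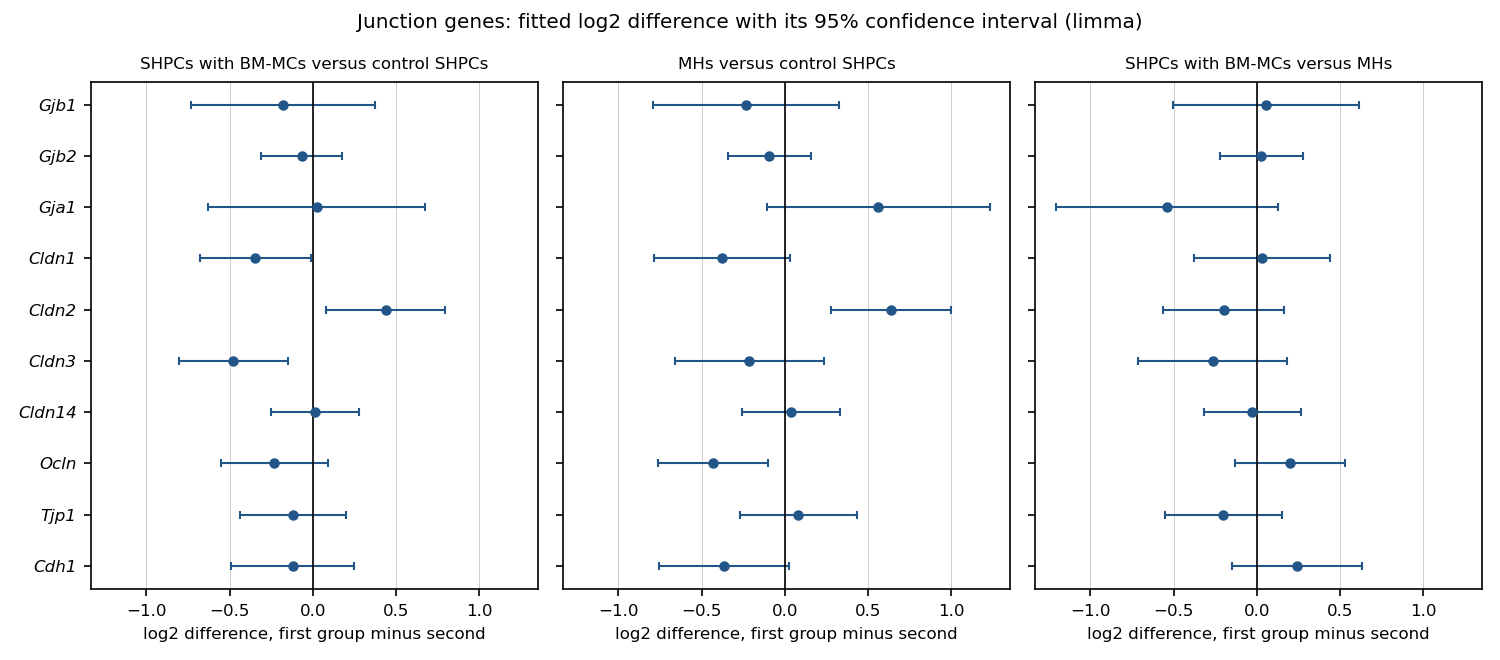
Fitted log2 difference of each junction gene (points) with its 95% confidence interval (bars) in the 3 comparisons, from limma. The vertical line marks no difference. The intervals that leave out 0 are those of Cldn1, Cldn2 and Cldn3 with BM-MCs and of Cldn2 and Ocln in MHs, before adjustment for the number of probes.

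The genes differed in how much they varied from sample to sample. The range over the 8 samples was 0.17 for Gjb2 and 0.21 for Cldn14, and 0.27% and 1.07% of all tested probes had a smaller range. Their signals ran from 13158 to 22766 in deposited units, and no spot with marks was saturated. Tjp1, Cdh1, Ocln and Cldn1 ranged over 0.43, 0.52, 0.55 and 0.67, below the median of 0.73 over all tested probes, and Cldn3 lay at that median with 0.73. Gjb1, Cldn2 and Gja1 varied most, over 0.87, 0.92 and 1.20.

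**Figure D4:**
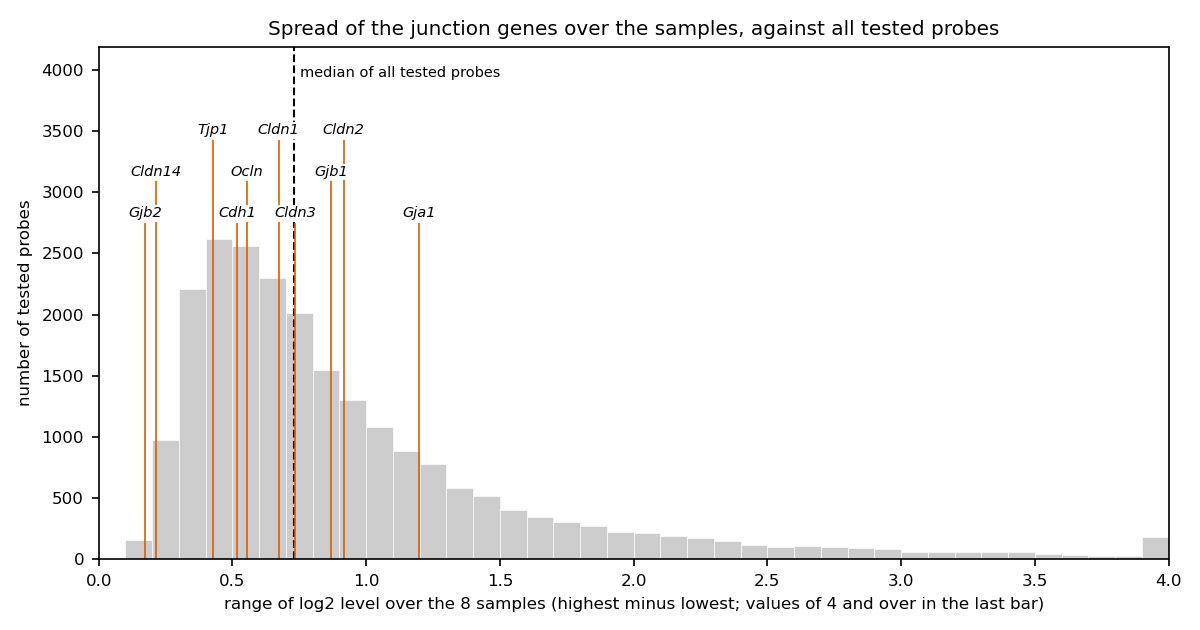
Number of tested probes (grey bars) by the range of their log2 level over the 8 samples, with the junction genes marked by orange lines and the median of all tested probes by the dashed line. Gjb2 and Cldn14 lie at the narrow end, at 0.17 and 0.21, and Gja1 at 1.20 is the widest of the 10.

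For these 3 most variable genes, the nearest patterns were sought among 12109 genes, by the root mean square difference of levels centred over the 8 samples. Nearest to Gja1 were Ctla2a (0.088), Csf1r, the receptor that macrophages need to survive (0.090), and Icos (0.099). Nearest to Cldn2 were Dnai4 (0.082), Zbtb46 (0.097) and Atrnl1 (0.098). Nearest to Gjb1 were Slc17a2 (0.070), Uox, the urate oxidase of hepatocyte peroxisomes (0.085), and Abhd14b (0.085). With 8 samples such likeness is a description of these samples.

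Markers of lobular position differed in level between samples. A list of 8 tested pericentral hepatocyte genes, among them Glul and Cyp2e1, had a mean centred log2 level of 1.07 and 0.42 in MHs, of -0.49, -0.53 and -0.33 in control SHPCs, and of 0.25, 0.14 and -0.52 with BM-MCs. The third SHPC sample with BM-MCs, the lowest of its group for these genes, was also the lowest of its group for Cldn2, but it stayed above the controls for Cldn2 and not for the list. A list of 10 periportal genes was at -0.51 and -0.60 in MHs, between 0.070 and 0.58 in control SHPCs, and between -0.036 and 0.38 with BM-MCs. Against control SHPCs 0 of 8 pericentral genes were called in MHs although all 8 were higher in sign, and 1 of 10 periportal genes was called lower, the mitochondrial dehydrogenase Aldh1b1 (log2 difference -1.87, adjusted p = 0.010 from limma). In this comparison 1.13% of all probes were called. With BM-MCs 0 of the 8 and 0 of the 10 were called, against 0.0216% of all probes. The part of lobular position in the values of Cldn2, Gjb2 and Cdh1 was not tested.

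Markers of other cells also differed between samples. The 10 Kupffer cell and macrophage genes were at 0.22 and 0.48 in MHs and between -0.52 and 8.3e-05 in control SHPCs. With BM-MCs they were at 0.17, 0.041 and -0.33, an order that Gja1 shared. The endothelial list (0.12, 0.095 and -0.16), the stellate cell list (0.37, 0.12 and -0.12) and the pericentral list had this order too. Lists of bile duct, granulocyte, erythroid and bone marrow mesenchymal genes did not. The mean level of the 7 tested bile duct markers was -0.71 and -0.16 in MHs, between 0.17 and 0.47 in control SHPCs, and between -0.40 and 0.53 with BM-MCs, and 0 were called in any comparison. The 3 tested granulocyte genes (of 8) lay between 0.50 and 1.06 in control SHPCs and between -0.93 and -0.60 with BM-MCs, and the 7 erythroid genes between 0.013 and 1.31 and between -0.63 and -0.43, with 0 called. Lists for endothelial cells, stellate cells and bone marrow mesenchymal cells had 0 genes called with BM-MCs, and their ranges overlapped between both SHPC groups. In MHs the stellate cell gene Rgs5 was called higher than in control SHPCs (log2 difference 1.09, adjusted p = 0.034 from limma), where 1.13% of all probes were called. Of the 10 genes of that list, 4 were higher and 6 lower in sign in MHs, with a median of -0.091. Dcn at -1.12 and Col1a1 at -1.11 were among the lower ones. The part of these cells in the junction values was not tested. In captured tissue, fewer cells of a type and less RNA per cell cannot be told apart.

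**Figure D5:**
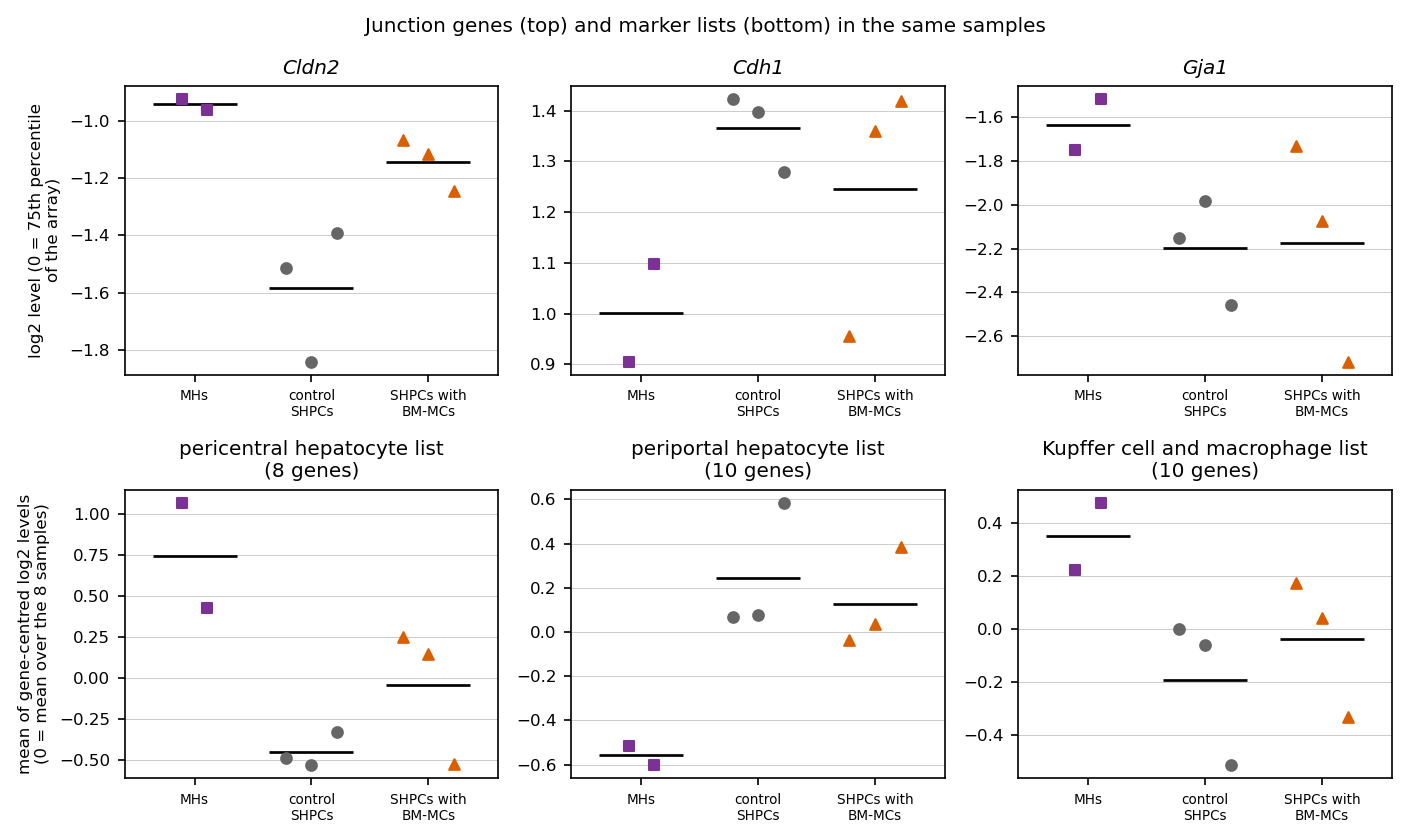
Log2 level of Cldn2, Cdh1 and Gja1 in each sample (top, 0 at the 75th percentile of the array) above the mean of the centred log2 levels of a marker list in the same samples (bottom, 0 at the mean over the 8 samples). Squares are MHs, circles control SHPCs and triangles SHPCs with BM-MCs, in order of replicate, and lines are group means. The MHs are the highest samples for Cldn2 and for the pericentral list, at 1.07 and 0.42.

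Of 93 other junction genes on the array, 67 were tested, and 1 was called, for MHs against control SHPCs, where 1.13% of all probes were called. Gja5, which encodes the connexin Cx40 of arterial endothelium, was at -4.66 and -4.91 in MHs, at -2.97, -3.18 and -3.60 in control SHPCs, and at -3.65, -3.50 and -3.82 with BM-MCs. The MHs were the lowest of the 8 samples, and the other groups overlapped. In MHs it fell by 1.53 on the log2 scale against control SHPCs (95% confidence interval -2.02 to -1.05, adjusted p = 0.019 from limma). It no longer passed without control SHPC 1 or 2 (log2 difference -1.39 and -1.50, adjusted p = 0.064 and 0.089). Nor did it pass without either MH sample (log2 difference -1.66 and -1.41, adjusted p = 0.11 and 0.12), where 1 MH sample is left and is assumed to vary like the other groups. With normexp background correction the difference was -0.84 (adjusted p = 0.099). The probe was well above background on every array with marks. With BM-MCs its log2 difference from controls was -0.41 (adjusted p = 0.34 from limma), or -0.055 with the set of arrays as a block.

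With BM-MCs 0 of the 67 were called against control SHPCs, and their median log2 difference was -0.012. The 2 with the lowest p in each group of the list are given by their log2 difference from controls. Among connexins and pannexins they were the channel gene Panx2 at 0.72 (adjusted p = 0.25 from limma) and Gja5, given above. Among claudins they were Cldn4, a barrier claudin of bile duct cells, at -1.40 (adjusted p = 0.22) and Cldn11 at 0.38 (adjusted p = 0.31). With normexp background correction Cldn4 was at -0.42 and Cldn11 at 0.052. Cldn4 was also at -1.68 in MHs against control SHPCs (adjusted p = 0.13 from limma), but it was well above background on only 1 of the 3 arrays with BM-MCs and 1 of the 2 MH arrays, so these values include signals near background. Among other tight junction membrane proteins, F11r, which encodes the adhesion molecule JAM-A, was at -0.34, and Marveld3, a relative of occludin, at -0.61.

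All 22 listed scaffold and polarity genes were tested, and 11 were higher and 11 lower in sign with BM-MCs. Magi1, a scaffold at tight junctions, and Tjap1, a tight junction-associated protein, differed from controls by 0.37 and 0.33 (adjusted p = 0.25 and 0.26, limma). Among adherens junction genes, the adhesion molecule Nectin1 was at 0.32 and the junctional adaptor Plekha7 at 1.23, or at -0.17 with the set of arrays as a block, and Plekha7 was well above background on 1 of the 2 control arrays with marks for it. Among desmosome genes, the cadherins Dsg1 and Dsc2 had values of -1.01 and -0.20 (adjusted p = 0.46 and 0.58, limma). Dsg1 was at -0.22 with normexp background correction and at -0.32 with a floor for dim spots, and it was well above background on 1 of the 3 arrays with BM-MCs.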

How the data were processed

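RNA of cells captured by laser microdissection was labelled with Cy3 and hybridised to Agilent rat arrays. For each array the authors deposited a background-subtracted intensity, the processed signal of Agilent Feature Extraction 10.7, and a value table of all 8 samples repeats it. Because the scanner file of control SHPC 2 stops at 20903 of 62976 features, its values came from that table. Its marks cover only those features. They were used to drop outlier spots but not to decide which probes entered the test.

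From every log2 signal the 75th percentile of its array was subtracted. Outlier spots were dropped and replicate spots averaged. A probe entered the test if 3 or more of the 7 arrays marked it well above background, which left 23111 probes. The test was limma 3.58.1 (R 4.3.3), first tested on simulated data, with p-values adjusted by Benjamini-Hochberg (threshold 0.05). Both SHPC groups were fitted alone (6 samples) and MHs with all 8 samples. The brightest tested probe stands for a gene.

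The 10 genes and all lists were chosen with earlier results of these data known. All 10 are named. Of other junction genes, those called anywhere and the 2 with the lowest p with BM-MCs in each group of the list are named. Aldh1b1, Rgs5 and other markers were named after their values were seen. Alternatives covered scaling, filter, spots, test, blocks, background correction, probes and single samples.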

Additional observations from a re-analysis of the deposited data

How the results depend on the processing

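The number of arrays limits the precision: for the 10 junction genes the 95% confidence intervals reached up to 0.81 from 0 with BM-MCs and up to 1.23 in MHs on the log2 scale. Of all alternatives, 1 called a junction gene, the methods' t-test without adjustment, with 1 higher and 1 lower with BM-MCs (14.9% of all probes called), and 1 higher and 2 lower in MHs (17.5%), against control SHPCs. Over the other alternatives the smallest adjusted p among the 10 ran from 0.086 (array weights) to 0.53 with BM-MCs, from 0.059 (intensity trend) to 0.37 in MHs, and from 0.22 to 0.83 for SHPCs with BM-MCs against MHs. Of the 30 log2 differences, 13 kept their sign throughout, including those of Cldn1, Cldn2, Cldn3 and Ocln with BM-MCs and of Cldn2, Ocln, Cdh1 and Gja1 in MHs.

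The other 17 changed sign somewhere. Median scaling and no scaling move all probes alike, and for the other alternatives the cause was not tested. With BM-MCs against controls, median scaling, which moved the median of all probes from 0.018 to -0.17, gave Gja1 -0.17 and Cldn14 -0.18, quantile normalization gave Gjb2 0.056 and Gja1 -0.039, the set of arrays as a block gave Cldn14 -0.13, Tjp1 0.025 and the adherens gene Plekha7 -0.17, and normexp gave Gjb2 0.071. Without a change of sign, the other junction genes moved to 0.18 for Magi1, 0.14 for Tjap1, 0.13 for Nectin1 and -0.39 for Dsc2 with median scaling, to 0.41 for Panx2 and 0.23 for Plekha7 with normexp, and to -0.60 for F11r with the set block. In MHs against controls Gjb2 was 0.0013 with quantile normalization and 0.019 with normexp. Between SHPCs with BM-MCs and MHs, Gjb1, Gjb2 and Cldn1 were -0.14, -0.17 and -0.17 with median scaling and -0.023, -0.054 and -0.049 without scaling, while the median of all probes went from 0.0030 to -0.19 and -0.078, Cldn14 was 0.041 with quantile normalization, Gjb1, Cldn1 and Tjp1 were -0.52, -0.10 and 0.015 with the set block, and Ocln was -0.095 over the mean of its probes. Leaving out each sample, the range with BM-MCs was -0.21 to 0.023 for Cdh1, -0.027 to 0.081 for Cldn14, -0.20 to 0.29 for Gja1 and -0.35 to 0.014 for Gjb1, and, without a change of sign, -0.098 to -0.035 for Gjb2, -0.21 to -0.068 for Tjp1, -0.43 to -0.21 for F11r, -1.02 to -0.39 for Marveld3, -1.75 to -0.37 for Dsg1, -0.36 to -0.085 for Dsc2, 0.60 to 1.93 for Plekha7 and -0.58 to -0.27 for Gja5. In MHs it was -0.061 to 0.14 for Cldn14, -0.48 to 0.055 for Cldn3 and -0.044 to 0.21 for Tjp1. Between SHPCs with BM-MCs and MHs it was -0.17 to 0.24 for Cldn1, -0.12 to 0.073 for Cldn14, -0.53 to 0.0024 for Cldn3, -0.059 to 0.21 for Gjb1 and -0.0052 to 0.057 for Gjb2.

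The deviations of same-numbered control SHPCs and SHPCs with BM-MCs correlated at 0.13, 0.078 and 0.17 and those of differently numbered ones at -0.15 to 0.082 (22969 probes). Same-numbered MHs correlated with either at -0.13 to 0.051, and control SHPC 2 correlated best with BM-MC sample 1. Not every pair exceeded 0.1, so the numbers were not taken as pairs. With the replicate number as a block, 0 junction genes were called, all probes gave 29 higher and 130 lower in MHs and 0 in the other comparisons, and Gjb1 and Cldn1 were -0.097 and -0.030 for SHPCs with BM-MCs against MHs.

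The call of Gja5 in MHs rested on the setting. It passed at the adjusted threshold in 12 of 21 different fits and missed the threshold without scaling (adjusted p = 0.064), without a filter on dim probes (0.066), with only MHs and control SHPCs fitted (0.053), with normexp (0.099), with the methods' t-test after adjustment (0.19) and without 4 of the samples in turn.

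Counts over all probes moved more. With BM-MCs the 5 higher and 0 lower calls became 0 to 490 and 0 to 40 with single samples left out. In MHs the 50 higher and 212 lower became 4 to 214 and 49 to 309, and for SHPCs with BM-MCs against MHs the 74 higher and 4 lower became as few as 0, and the lower count as many as 8. The methods' t-test without adjustment called 1876 higher and 1577 lower with BM-MCs, 2169 and 1868 in MHs, and 1015 and 1126 between the 2 groups.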
